A study of Mus musculus with 24 samples.

Results

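Muscle loses mass when protein breakdown outruns synthesis, and a small group of genes is widely used to follow that state. Foxo1 and Foxo3 encode forkhead transcription factors that insulin and Akt signalling keep out of the nucleus. When that signalling falls, they switch on the muscle ubiquitin ligases Fbxo32 (atrogin-1) and Trim63 (MuRF1), which tag proteins of the fibre for the proteasome. Fbxo30 (MUSA1) is a ligase restrained by BMP signalling, Eif4ebp1 (4E-BP1) holds back cap-dependent translation, Ddit4 (REDD1) inhibits mTORC1, and Gadd45a is a stress gene known to be induced in denervated muscle. These 8 atrophy and FoxO genes were taken by symbol from the deposited matrix of 14159 genes, and all 8 were present.

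The study asked how mice of the C57BL/6 strain (B6) and of the autoimmune-prone MRL/MpJ strain (MRL) respond to volumetric muscle loss, a surgical removal of a piece of the quadriceps. Mice were female and 6 to 8 weeks old at surgery. Muscle was left uninjured or the defect was treated with saline (the vehicle control), with decellularized extracellular matrix from pig small intestine (ECM) or with polyethylene powder (PE), and whole injured quadriceps was collected at day 21 for bulk RNA sequencing. Each of the 8 groups had 3 libraries, and the methods describe 24 independent samples without tying each library to an animal. The p-values therefore set group differences against the spread between these libraries, pooled over the 8 groups.

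Values are log2 CPM, the log2 of the reads of a gene scaled to a library of common size (CPM) after TMM scaling. They are not corrected for gene length, so levels are compared between libraries and never between genes. A count of 0 stood at -3.65 in all 24 libraries, the mean effective library size was 25149678 reads, and a count of 0 allows up to 3 counts, or 0.119 CPM. The 8 genes lay between 3.58 and 9.51 in every library, far above that level. Groups were compared with limma over all genes, and a gene was called at a Benjamini-Hochberg adjusted p under 0.05. Muscle fibre markers such as Acta1, Ckm and Ttn were high, with a mean over 18 markers between 10.3 and 12.8 log2 CPM per library. Replicate 2 of both PE groups had the lowest fibre mean, at 10.3 in each, and the highest macrophage mean, at 7.90 in B6 and 7.21 in MRL mice. Across genes, replicates of a group correlated between 0.812 and 0.976 (Pearson). The lowest values, 0.812 and 0.827, paired replicate 2 of the PE-treated MRL mice with replicates 1 and 3, and every other pair reached at least 0.904. No gene in the matrix was a near-identical copy of any of the 8.

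The genes lie on GRCm39 at chromosome 15 from 58039275 to 58078741 (Fbxo32), chromosome 4 from 134042393 to 134056948 (Trim63), chromosome 3 from 52175757 to 52260642 (Foxo1) and chromosome 10 from 42057837 to 42154007 (Foxo3). Fbxo30 lies on chromosome 10 from 11156770 to 11173806 and Eif4ebp1 on chromosome 8 from 27750350 to 27805206. Gadd45a lies on chromosome 6 from 67012070 to 67014441 and Ddit4 on chromosome 10 from 59785491 to 59788492. All are annotated as protein-coding genes, and each value combines the transcripts of a gene.

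Trim63 is shown with sequence because its promoter window was the single one among these genes to hold a FoxO core. RefSeq promoter windows of 250 bases before the RefSeq start site were found for 6 of the 8 genes, and were not found for Fbxo32 and Eif4ebp1. The stretch below is the RefSeq window of a GRCm38.p6 table, matched exactly to the plus strand of GRCm39 at chr4:134042181-134042280, upstream of the annotated gene and outside its exons. Capitals mark a glucocorticoid receptor core (AGAACA, read on the minus strand) followed without a gap by a FoxO core (GTAAACA, read on the minus strand).
Trim63: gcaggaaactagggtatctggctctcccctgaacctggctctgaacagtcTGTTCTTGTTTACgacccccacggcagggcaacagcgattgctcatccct
The glucocorticoid receptor core covers bases 200 to 195 before the RefSeq start and the FoxO core bases 194 to 188, so they do not overlap. Of 32851 windows of this length, searched on both strands, 3.17% held GTAAACA and 16.1% held AGAACA. The hypoxia response core ACGTG was found in the Ddit4 window, at bases 187 to 183 before the RefSeq start, and in 16.6% of all windows. That window, at chr10:59787593-59787842, lies within the annotated gene given above, as do the windows of Fbxo30 and Foxo3. No window of the 6 held the insulin response core CAAAACA (5.56% of all windows), the ATF4 core TGATG (34.5%) or an exact AGAACA with its inverted copy 3 bases further on (0.00913%). In the Trim63 stretch the letters TGAACA end 3 bases before the capitals and differ from AGAACA only in the first base. Such near matches to the inverted repeat were not searched for. These matches describe the letters of the windows and were not tied to binding.

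The plot of levels by group shows the 8 genes in all 24 libraries. Differences between groups stood out in Gadd45a, Fbxo32 and Trim63, whereas the libraries of most groups overlapped for Foxo1 and Ddit4.

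**Figure D1:**
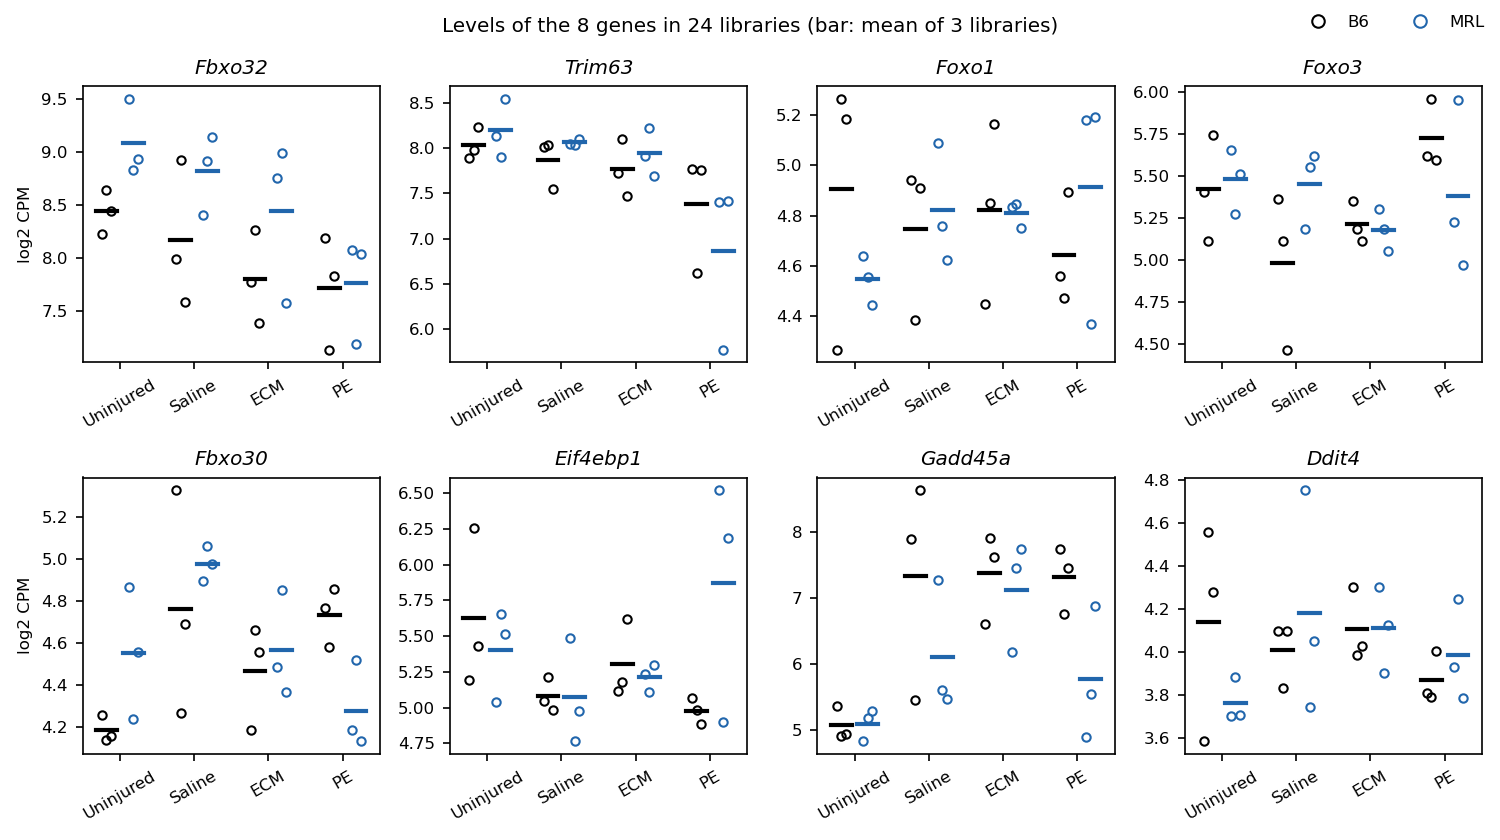
Levels of the 8 genes (log2 CPM, vertical axis, scaled separately per gene) in uninjured, saline-, ECM- and PE-treated quadriceps of B6 (black) and MRL (blue) mice; each circle is a library and each bar the mean of 3 libraries. Gadd45a lay between 4.83 and 5.36 in the 6 uninjured libraries and reached 8.63 after injury, while the lowest Trim63 value, 5.77, came from a PE-treated MRL library.

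Injury was compared with uninjured muscle first, within each strain, and the 3 injured groups of a strain share the same uninjured libraries. Among the 8 genes, 3 calls were made in these 6 comparisons. Gadd45a rose in PE-treated B6 mice, and Fbxo32 and Trim63 fell in PE-treated MRL mice. None of the 8 was called after saline or ECM in either strain. Of all genes, 0%, 0.424% and 24.8% were called after saline, ECM and PE in B6 mice, and 0%, 0.0141% and 9.73% in MRL mice. The libraries of injured and uninjured mice did not overlap for 2, 1 and 5 of the 8 genes in B6 mice, and for 15.9%, 32.3% and 51.1% of all genes. In MRL mice they did not overlap for 2, 3 and 2 of the 8, and for 13.0%, 13.1% and 38.8% of all genes. Foxo1, Foxo3, Fbxo30, Eif4ebp1 and Ddit4 were called in none of the 16 comparisons of 2 groups. Between treatments, none of the 8 was called in B6 mice (ECM against saline 0.0283% of all genes, PE against saline 5.97%, PE against ECM 0.226%) or in MRL mice (0.00706%, 0% and 0%).

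**Figure D2:**
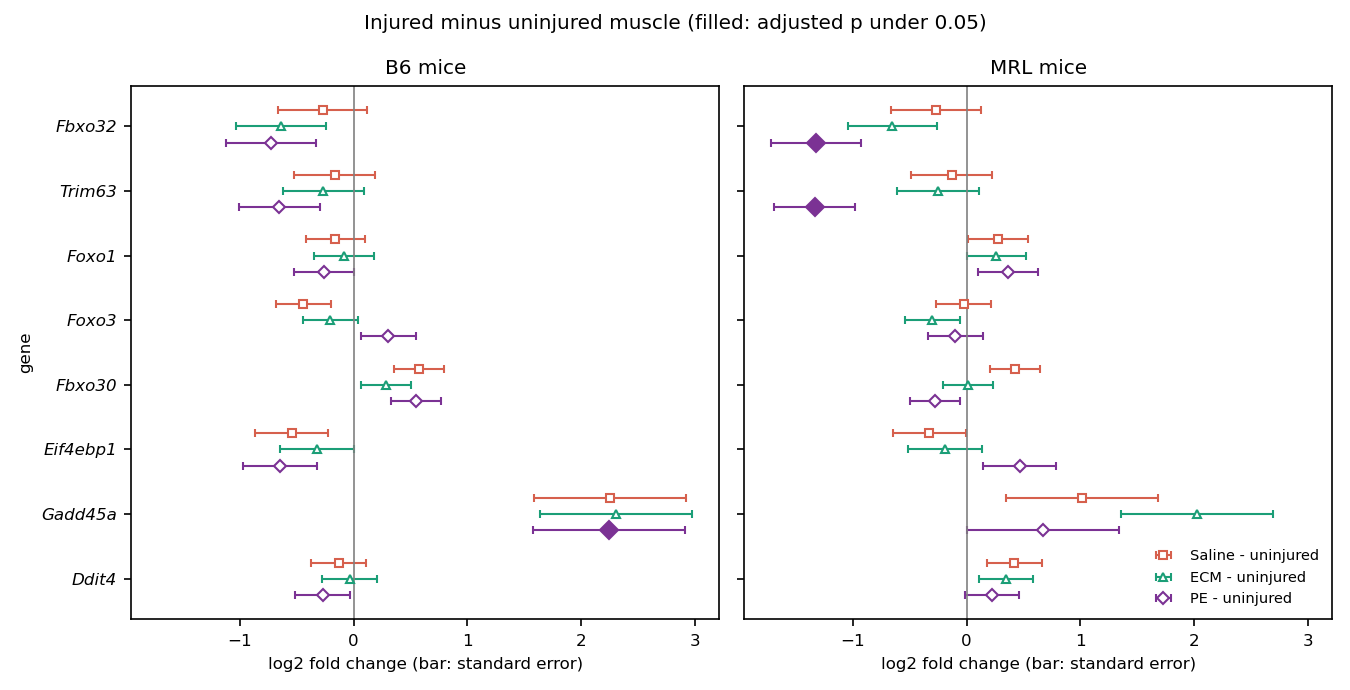
Log2 fold change of each of the 8 genes between injured and uninjured muscle (horizontal axis), for saline (squares), ECM (triangles) and PE (diamonds) in B6 (left) and MRL mice (right); bars are standard errors from limma and filled symbols passed an adjusted p of 0.05. The filled symbols are Gadd45a in PE-treated B6 mice at 2.24, and Fbxo32 at -1.32 and Trim63 at -1.33 in PE-treated MRL mice.

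Fbxo32 encodes the substrate-binding subunit of an SCF ubiquitin ligase. In uninjured MRL mice its level was 9.51, 8.83 and 8.94 log2 CPM, and after PE it was 8.08, 7.20 and 8.04. All 3 PE libraries lay below all 3 uninjured ones, with replicate 2 lowest. The group means were 9.09 ± 0.36 and 7.77 ± 0.50 (SD, n = 3), so the difference was -1.32 on the log2 scale (standard error 0.39, limma adjusted p = 0.0474), or 2.50-fold lower. Trim63 encodes a RING-finger ligase that sits at the sarcomere and targets myosin and other thick-filament proteins. Its levels were 8.14, 7.90 and 8.55 in uninjured MRL mice and 7.41, 5.77 and 7.41 after PE. Again the groups did not overlap, and replicate 2 stood well below the other 2 PE libraries. The mean went from 8.20 ± 0.33 to 6.86 ± 0.95 (SD, n = 3), and the difference was -1.33 on the log2 scale (standard error 0.36, limma adjusted p = 0.0448), or 2.52-fold lower. Of all genes, 9.73% were called in this comparison and 3.78% were called lower, against 2 of the 8, both lower.

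The fall of Fbxo32 and Trim63 in PE-treated MRL mice was close to the threshold and rested on single libraries. Without replicate 2 of the PE-treated MRL mice, Fbxo32 was at -1.03 (adjusted p = 0.219) and Trim63 at -0.79 (adjusted p = 0.197), and 1 gene in all was called in place of 1377. Neither gene was called without replicate 1 or 3 of the uninjured MRL mice, where no gene of the matrix was called. Without uninjured replicate 2, Fbxo32 was at -1.45 (adjusted p = 0.0524). The direction was the same in all 14 alternative fits for both genes, with Fbxo32 called in 5 and Trim63 in 7 of them.

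Muscle fibre markers moved with Fbxo32 and Trim63. The mean over the 18 fibre markers was 1.15 lower in PE-treated than in uninjured MRL mice (log2 difference -1.15), with 0 of 18 called by limma, 10 of 18 at an unadjusted p under 0.05 (36.1% of all genes) and 0 of 18 above zero. The log2 of their summed CPM ranged from 17.5 to 17.95 in the uninjured and from 15.3 to 17.2 in the PE libraries, and no defining marker was at 0. Macrophage markers were higher, with 6 of 10 called and a median log2 fold change of 2.18. The log2 of their summed CPM was 6.53 to 7.64 in the uninjured libraries and 8.09, 12.2 and 8.10 in the PE libraries. Replicate 2 thus stood far above the other PE libraries, which lay below a saline-treated MRL library at 8.98. The fit without that replicate, given above, called almost no gene of the matrix. Measured relative to the fibre mean of the same library, Trim63 stood at -4.44 ± 0.11 after PE and -4.26 ± 0.31 in uninjured MRL mice (log2 scale, SD, n = 3), a difference of -0.18. Relative to the fibre mean, Fbxo32 stood at -3.53 ± 0.34 and -3.36 ± 0.23, a difference of -0.17. On that relative scale neither difference exceeded the larger SD of the 2 groups. The part of the other cell types in these changes was not tested, and in bulk muscle fewer fibres and less RNA per fibre cannot be told apart.

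In PE-treated B6 mice both ligase genes were lower without a call. Fbxo32 was at 8.23, 8.65 and 8.45 in uninjured and 8.19, 7.14 and 7.83 in PE-treated B6 mice, which gave -0.73 on the log2 scale (standard error 0.39, limma adjusted p = 0.170). Trim63 was at 7.89, 7.98 and 8.23 and at 7.76, 6.62 and 7.76, which gave -0.65 on the log2 scale (standard error 0.36, limma adjusted p = 0.174). For both genes the PE libraries lay below the uninjured ones, and replicate 2 was lowest. The fibre mean was 1.09 lower in the PE-treated B6 mice (log2 difference -1.09), and relative to it Fbxo32 and Trim63 differed by 0.36 and 0.44. Neither exceeded the larger SD of the groups on that scale, 0.80 for Fbxo32 and 0.61 for Trim63 (n = 3). Without PE-treated replicate 2 the log2 fold changes in B6 mice were -0.43 for Fbxo32 and -0.27 for Trim63, and over all 14 alternative fits they ranged up to -0.22 and -0.24. After saline and ECM the log2 fold changes against uninjured muscle were -0.27 and -0.63 for Fbxo32 in B6 mice, and -0.27 and -0.65 in MRL mice. Those of Trim63 were -0.17 and -0.27 in B6 and -0.13 and -0.25 in MRL mice, all with overlapping libraries. The fibre mean differed little in these groups, by 0.15 and -0.22 in B6 and by -0.02 and -0.13 in MRL mice.

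Between treatments of MRL mice, PE stood below saline for Fbxo32 (log2 fold change -1.05, limma adjusted p = 0.142) and Trim63 (-1.20, adjusted p = 0.113) without a call. The libraries of PE and saline did not overlap for 3 of the 8 genes and for 20.2% of all genes. Trim63 was at 8.05, 8.04 and 8.10 in the saline-treated MRL libraries, the narrowest spread of any of its groups (SD 0.03, n = 3). Against ECM the values were -0.67 for Fbxo32 (adjusted p = 0.260) and -1.08 for Trim63 (adjusted p = 0.0806). By limma, 0 genes of the whole matrix were called between PE and saline and between PE and ECM in MRL mice, while 3298 (23.3%) and 4022 (28.4%) had an unadjusted p under 0.05, among them 4 and 1 of the 8.

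The strains were then set side by side. Fbxo32 was higher in uninjured MRL than B6 mice in every library, 8.83 to 9.51 against 8.23 to 8.65, a log2 fold change of 0.65 (standard error 0.39) that limma did not call (adjusted p = 0.623). It was the 1 of the 8 genes whose uninjured libraries did not overlap between strains, against 21.8% of all genes. None of the 8 was called between strains, against 2.60% of all genes in uninjured mice and 2.51%, 2.66% and 3.35% after saline, ECM and PE. After saline and ECM the strain difference was 0.65 and 0.63, with overlapping libraries, and after PE it was 0.05. Trim63 differed between strains by 0.16 in uninjured mice and by -0.52 after PE. The test of the difference between strains in the response to PE called neither gene, and none of the 8 in any of the 4 such tests (0%, 0.00706% and 0.0212% of all genes for saline, ECM and PE against uninjured, and 0% for PE against ECM). The smallest adjusted p among the 8 for the PE response was 0.324, for Fbxo30.

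The third ligase gene, Fbxo30, varied differently from Fbxo32 and Trim63. It was at 4.26, 4.14 and 4.16 in uninjured B6 mice and at 4.77, 4.58 and 4.86 after PE, with no overlap. The difference was 0.55 on the log2 scale (standard error 0.22), with an unadjusted p of 0.0218 and a limma adjusted p of 0.0712. After saline it was at 5.33, 4.27 and 4.69 in B6 mice, 0.58 above uninjured on the log2 scale (adjusted p = 0.326), and at 4.90, 5.06 and 4.98 in MRL mice against 4.87, 4.24 and 4.56 uninjured. In PE-treated MRL mice it was at 4.19, 4.52 and 4.13, below every saline-treated MRL library (log2 fold change -0.70, adjusted p = 0.118). The difference between strains in the PE response was -0.82 (unadjusted p = 0.0157, limma adjusted p = 0.324), so the opposite signs in B6 and MRL mice did not pass the test.

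The FoxO factors themselves showed no call. Foxo3 was highest in PE-treated B6 mice, at 5.62, 5.96 and 5.59, and lowest in saline-treated B6 mice, at 5.36, 5.11 and 4.46. Every PE library was above every saline library, a log2 fold change of 0.75 (standard error 0.24) with a limma adjusted p of 0.0704. Foxo3 was the 1 gene of the 8 without overlap there, against 29.7% of all genes. Against uninjured B6 mice, at 5.40, 5.11 and 5.75, Foxo3 differed after PE by 0.31 (adjusted p = 0.347), and the libraries overlapped. In MRL mice the PE library with the lowest fibre mean, replicate 2, had the highest Foxo3 level, 5.95, while the other 2 were at 5.23 and 4.97. Foxo1 group means lay between 4.55 ± 0.10 in uninjured MRL mice and 4.91 ± 0.47 in PE-treated MRL mice (SD, n = 3), a span of 0.37 against a pooled SD within groups of 0.33. The data report transcript levels, and the phosphorylation and nuclear exclusion that control FoxO activity were not measured.

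The translation and mTORC1 inhibitors were also not called. Eif4ebp1 was at 6.52, 4.90 and 6.19 in PE-treated MRL mice, so replicate 1 was the highest of all 24 libraries and replicate 3 was passed otherwise only by an uninjured B6 library at 6.26. In PE-treated B6 mice it was at 5.06, 4.99 and 4.89, below the uninjured B6 libraries at 5.19, 6.26 and 5.43 (log2 fold change -0.65, limma adjusted p = 0.137). Between strains after PE Eif4ebp1 differed by 0.89 on the log2 scale (standard error 0.32, limma adjusted p = 0.135), and the strain difference in the PE response was 1.11 (standard error 0.46, adjusted p = 0.358). Without replicate 2 of the PE-treated MRL mice, limma called 1 of the 8 genes in each of these 2 comparisons. With single libraries left out, all genes called ranged from 234 to 3490 and from 1 to 1354 there, against 474 and 3 with every library. Adipocyte markers moved with Eif4ebp1. Their mean over 10 markers was 8.66, 4.98 and 8.06 log2 CPM in the PE-treated MRL libraries, 8.17 in the uninjured B6 library at 6.26, and 3.25 to 4.43 in PE-treated B6 mice. Over the 24 libraries Eif4ebp1 and the adipocyte mean had a Pearson r of 0.826 and a Spearman rho of 0.723, and r was 0.744 without the 2 libraries farthest from the median adipocyte mean. After removal of group means, r was 0.781. The part of fat tissue in the Eif4ebp1 values was not tested. Ddit4 varied little, with group means between 3.76 ± 0.10 in uninjured and 4.18 ± 0.52 in saline-treated MRL mice (SD, n = 3) and a single library above 4.6, at 4.75.

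Gadd45a encodes a small stress protein that binds cell cycle and chromatin regulators. It was the gene of the 8 whose group means spanned the widest range, 2.31 on the log2 scale. In uninjured B6 mice it was at 5.36, 4.91 and 4.94 log2 CPM, and in PE-treated B6 mice at 7.74, 6.75 and 7.44. Every PE library was above every uninjured library. The mean rose from 5.07 ± 0.25 to 7.31 ± 0.51 (SD, n = 3), a difference of 2.24 on the log2 scale (standard error 0.67, limma adjusted p = 0.0236), or 4.74-fold. In this comparison 24.8% of all genes were called and 14.7% were called higher, against 1 of the 8. The rise kept its direction in all 14 alternative fits, between 2.03 and 2.66, and was called in 10. It was not called without uninjured B6 replicate 2 or 3, or without PE-treated B6 replicate 1 or 2, with adjusted p between 0.0557 and 0.0713.

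Gadd45a was not called in the other injured groups. After ECM, B6 mice were at 6.61, 7.90 and 7.62, which was 2.31 above uninjured on the log2 scale (limma adjusted p = 0.124). After saline, B6 replicates 1 and 3 were at 7.89 and 8.63, the latter the highest of all 24, while replicate 2 was at 5.45, just above the uninjured libraries. The log2 fold change was 2.26 (unadjusted p = 0.00318, limma adjusted p = 0.288). Without saline replicate 2 it was 3.19 (adjusted p = 0.00901). By limma, 0 genes of the matrix were called between saline-treated and uninjured B6 mice, with 1751 (12.4%) at an unadjusted p under 0.05, among them 2 of the 8.

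In MRL mice Gadd45a was at 4.83, 5.18 and 5.28 uninjured, at 7.27, 5.6 and 5.46 after saline, at 6.17, 7.45 and 7.74 after ECM and at 4.90, 5.54 and 6.87 after PE. All saline and ECM libraries were above the uninjured ones, and the PE libraries overlapped them. The log2 fold changes were 1.02, 2.03 and 0.67, with adjusted p of 1, 1 and 0.471, and the ECM value had an unadjusted p of 0.00688. With single libraries left out, the value ranged from 0.44 to 1.34 after saline and from 0.13 to 1.11 after PE, lowest without saline replicate 1 and without PE replicate 3. By limma, 0, 2 (0.0141%) and 1377 genes of the matrix were called in these 3 comparisons. After PE the strains differed by -1.54 (unadjusted p = 0.0326, adjusted p = 0.218), with MRL libraries lower but overlapping. The difference between strains in the PE response was -1.57 and was not called (limma adjusted p = 0.571).

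Gadd45a followed a list of genes known from denervated muscle library by library. The list of 12 denervation genes holds the acetylcholine receptor subunits Chrna1, Chrnb1, Chrnd and Chrng, the receptor kinase Musk, the regulators Myog, Hdac4 and Runx1, and the developmental myosins Myh3 and Myh8. Its mean was 6.48 and 6.41 log2 CPM in the saline-treated B6 replicates 1 and 3, where Gadd45a was highest, and 2.86 in replicate 2, where Gadd45a was low. Over the 24 libraries Gadd45a and the list mean had a Pearson r of 0.952 and a Spearman rho of 0.927, and r was 0.946 without the 2 libraries farthest from the median list mean. After removal of group means r was 0.917. The points share their libraries and their scaling, and the values are a description. Genes of myogenesis rose in general after injury in both strains, as the paper reports. The part of denervation and of myogenesis in the values of this list was not tested.

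**Figure D3:**
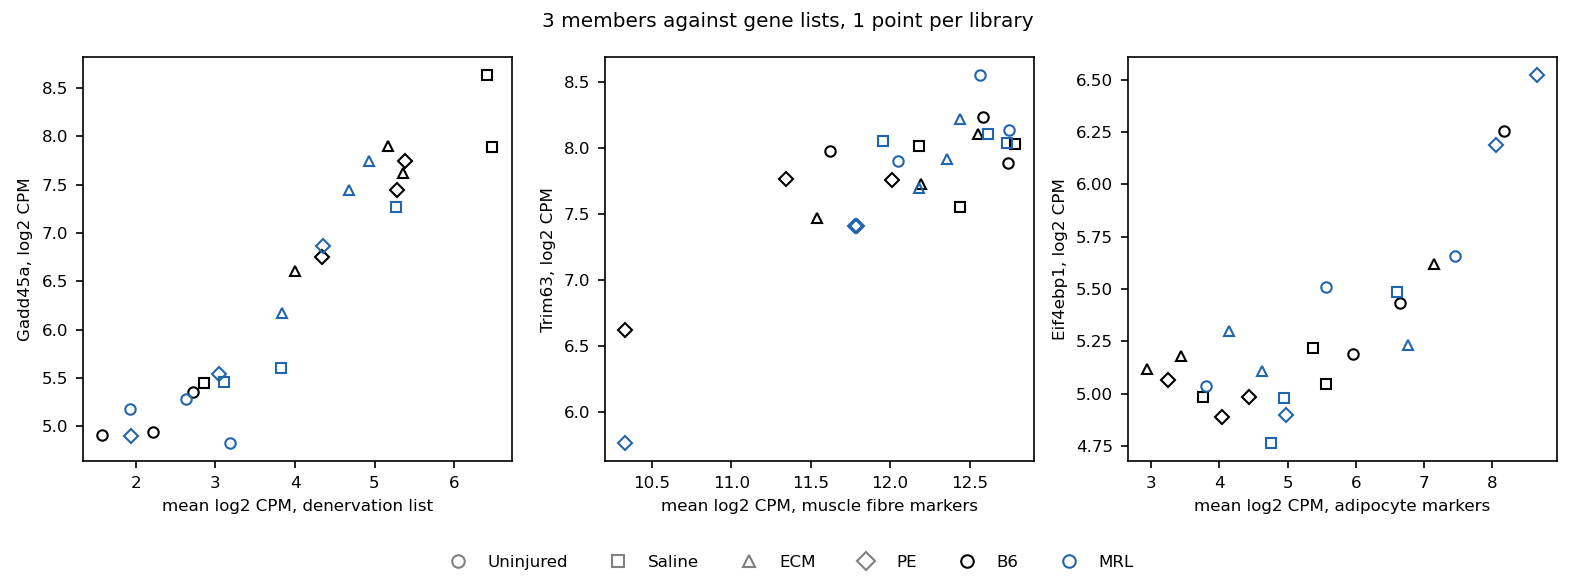
Level of Gadd45a (left), Trim63 (middle) and Eif4ebp1 (right) in each of 24 libraries (vertical axes, log2 CPM) against the mean log2 CPM of the denervation list, the muscle fibre markers and the adipocyte markers (horizontal axes); symbols give the treatment and colours the strain. Pearson r was 0.952, 0.847 and 0.826, and the 2 libraries at the lower left of the middle panel are replicate 2 of both PE groups.

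In PE-treated B6 mice 8 of the 12 denervation genes were called, all higher, with a median log2 fold change of 3.02 beside 0.02 over all genes. Chrng, the embryonic receptor subunit, was at 5.02 (standard error 1.33, limma adjusted p = 0.0145), Myh8 at 4.25, Runx1 at 4.10 and Myh3 at 3.89. Without PE-treated B6 replicate 2, 0 of the 12 were called by limma. After saline and ECM in B6 mice the list medians were 3.12 and 2.91 with 0 called by limma and 12 and 9 at an unadjusted p under 0.05, as for 12.4% and 16.8% of all genes. In MRL mice the medians were 1.58, 2.11 and 0.64 after saline, ECM and PE, with 0 called by limma and 1, 5 and 1 at an unadjusted p under 0.05, as for 3.10%, 3.80% and 36.1% of all genes.

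Fbxo32 and Trim63 varied together, with a Pearson r of 0.743 and a Spearman rho of 0.840 over the 24 libraries, 0.722 without the 2 libraries farthest from the median of Trim63. Trim63 against the fibre mean gave an r of 0.847 and a rho of 0.703, and r fell to 0.592 without replicate 2 of both PE groups. For Fbxo32 and the fibre mean the values were 0.687, 0.677 and 0.514. The fibre markers were not alone in this. Against the macrophage mean r was -0.726 for Fbxo32 and -0.735 for Trim63, and against the fibroblast mean -0.764 and -0.805. Without replicate 2 of both PE groups, Trim63 and the macrophage mean had an r of -0.501. Fbxo32 and Gadd45a, both known to rise on denervation, ran in opposite directions (r = -0.512), and Trim63 and Gadd45a had an r of -0.08. Foxo1 and Eif4ebp1 had an r of 0.577 and Fbxo30 and Eif4ebp1 one of -0.619. The remaining pairs lay between -0.420 and 0.459.

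Predicted genes, clones and pseudogenes were left out of this ranking. Among the other genes, the pattern most like that of Fbxo32 over the 24 libraries was that of Klhl38 (Pearson r = 0.967), followed by Med14 (0.935) and Pygo1 (0.899). For Trim63 they were Bves (0.951), Cfl2 (0.946) and Ppp2r3a (0.942), of which Cfl2 encodes the muscle cofilin. For Gadd45a they were Cpne2 (0.971), Sln (0.955) and Aif1l (0.955), of which Sln encodes sarcolipin, a regulator of the calcium pump. For Eif4ebp1 they were Fam132a (0.953), Mettl7a1 (0.937) and Ormdl3 (0.928). The closest to Foxo1 was Sh3pxd2a (0.846), to Foxo3 Hnrnpul2 (0.839), to Fbxo30 Raph1 (0.816) and to Ddit4 Itga8, at no more than 0.615.

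Each gene was also ordered by its group means. Fbxo32 and Trim63 shared the same order from uninjured MRL, saline-treated MRL and uninjured B6 mice at the top down to ECM-treated B6 mice, with the PE groups of both strains lowest. For 6 of the 8 genes no neighbouring groups in the order differed by more than the pooled SD within groups. The exceptions were Gadd45a between ECM- and saline-treated MRL mice (a step of 1.01 against an SD of 0.89) and Trim63 between PE-treated B6 and MRL mice (0.52 against 0.46).

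The wider pathway was read from lists around the 8 genes, in PE-treated against uninjured muscle, where most calls were made. The plot of pathway calls gives the share of each list called in each direction. In B6 mice 24.8% and in MRL mice 9.73% of all genes were called, with median log2 fold changes over all genes of 0.02 and 0.07. These counts rested on single libraries. In B6 mice 3508 genes were called, against 533 without PE replicate 2, 2087 without PE replicate 1, and 1681 and 1719 without uninjured replicates 1 and 3. Without B6 PE replicate 2, limma called 1 gene of the autophagy list, 2 of the ATF4 list and 0 of each of the other 7 lists. In MRL mice the count went from 1377 to 1 without PE replicate 2, to 0 without uninjured replicate 1 or 3, and to 2874 and 3427 without PE replicates 1 and 3, and limma called 0 genes of the 9 lists in each of the first 3 of these fits.

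**Figure D4:**
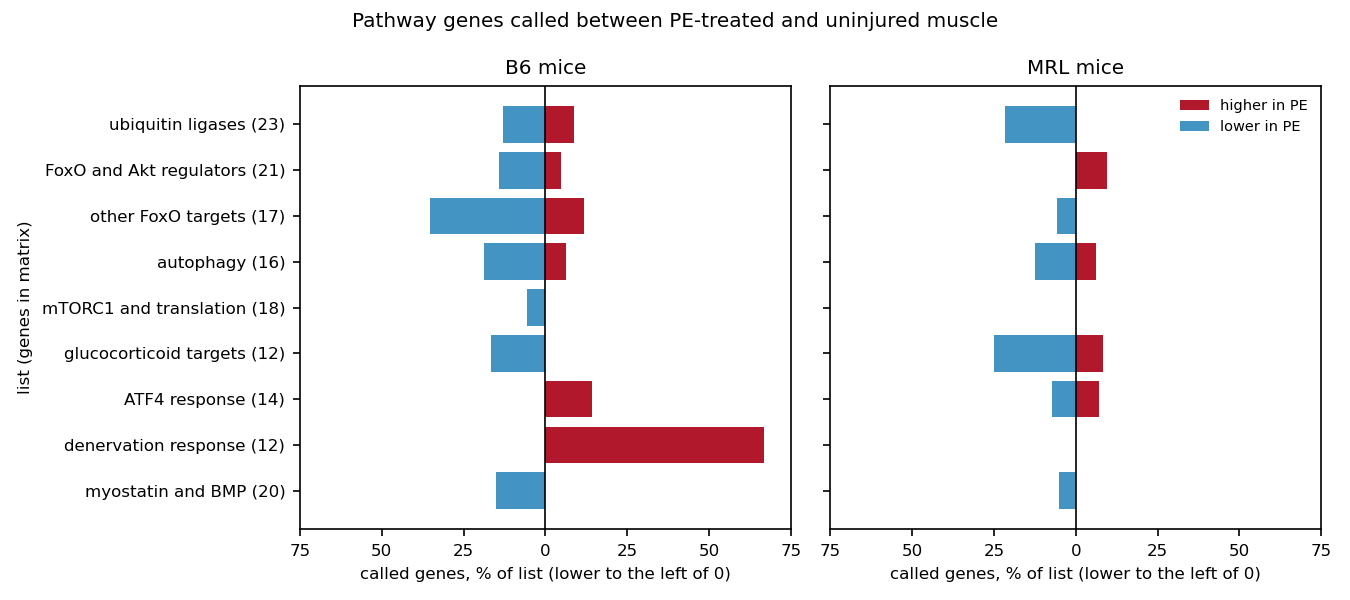
Share of each pathway list called higher (red, right of 0) or lower (blue, left of 0) in PE-treated than in uninjured muscle of B6 (left) and MRL mice (right), in percent of the genes of the list in the matrix (numbers in brackets). In B6 mice 8 of 12 denervation genes were higher and 6 of 17 other FoxO targets lower, and in MRL mice 5 of 23 other ubiquitin ligases were lower.

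Other ubiquitin ligase and deubiquitinase genes, like the lists after them, are to be read beside the 24.8% and 9.73% of all genes called in B6 and MRL mice. Of 23, 2 were higher and 3 lower in PE-treated B6 mice (median -0.31), and 0 were higher and 5 lower in PE-treated MRL mice (median -0.48). Asb2, a ligase subunit of muscle, fell by 1.70 in B6 (limma adjusted p = 0.0143) and fell by 1.49 in MRL mice (adjusted p = 0.0474). Its log2 fold changes were the most negative among the called genes of the list in both strains. Ubr2, an N-end rule ligase, fell by 0.89 in B6 mice. Usp1, a deubiquitinase, rose by 0.66 there. Trim55 (MuRF2) fell by 1.304 and Ube2b, a ubiquitin-conjugating enzyme, fell by 1.05 in MRL mice.

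Other FoxO target genes went in both directions. Of 17, 2 were higher and 6 lower in PE-treated B6 mice (median -0.24), and 0 were higher and 1 lower in PE-treated MRL mice (median -0.24). In B6 mice Pdk4, a kinase that limits glucose oxidation, fell by 3.17 (limma adjusted p = 0.00604), Bnip3, a mitophagy gene, by 1.40 and Irs2, an insulin receptor substrate, by 1.39. Cdkn1a, which encodes the cell cycle inhibitor p21, rose by 2.28 (adjusted p = 0.0460). Cdkn1b, which encodes p27, was the 1 gene called in MRL mice and fell by 0.52 (adjusted p = 0.0476).

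Of 21 FoxO family members and Akt regulators, 1 was higher and 3 lower in PE-treated B6 mice (median -0.19), and 2 were higher and 0 lower in PE-treated MRL mice (median -0.13). Ppargc1a, a coactivator of mitochondrial genes, fell by 1.57 and Insr, the insulin receptor, by 0.92 in B6 mice, while Akt1 rose by 0.59. In MRL mice Igf1, the growth factor upstream of Akt, rose by 2.13 (limma adjusted p = 0.0448).

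Of 16 autophagy genes, 1 was higher and 3 lower in PE-treated B6 (median -0.31), and 1 higher and 2 lower in PE-treated MRL mice (median -0.42). Ctsl, a lysosomal protease also abundant in macrophages, rose by 2.92 in B6 (limma adjusted p = 0.00180) and by 1.56 in MRL mice (adjusted p = 0.0489). Ulk1, the kinase that starts autophagy, fell by 0.75 and 0.88. Macrophage markers were higher in the same comparisons, with 9 of 10 called in B6 and 6 of 10 in MRL mice. In MRL mice PE replicate 2 stood far above the other PE libraries for these markers. The part of macrophages in the Ctsl values was not tested.

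Of 12 genes of the glucocorticoid receptor and its targets, 0 were higher and 2 lower in PE-treated B6 (median -0.15), and 1 was higher and 3 lower in PE-treated MRL mice (median -0.62). Klf9 fell by 0.65 in B6 and by 0.89 in MRL mice, and Zbtb16 fell by 2.11 in the B6 strain. In the MRL strain Per1 fell by 1.24 and Tsc22d3, which encodes GILZ, by 0.76. Mt2, a metallothionein, rose by 1.78 in MRL mice.

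Of 20 genes of the myostatin and BMP axis around Fbxo30, 0 were higher and 3 lower in PE-treated B6 (median -0.29), and 0 were higher and 1 lower in PE-treated MRL mice (median -0.52). Mstn, which encodes myostatin, the inhibitor of muscle growth, fell by 1.54 (limma adjusted p = 0.0356) and Wfikkn2, a myostatin antagonist, by 1.99 in B6 mice. Smad3, which carries the myostatin signal, fell by 1.11 in B6 and 0.96 in MRL mice.

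Of 18 mTORC1 and translation genes, 1 was called lower in PE-treated B6 mice, Eif4ebp2, which fell by 0.94 (limma adjusted p = 0.0455), and 0 in PE-treated MRL mice, where 7 had an unadjusted p under 0.05 (36.1% of all genes). The list medians were -0.28 in both strains. Of 14 genes of the ATF4 stress response, 2 were higher in PE-treated B6 mice (median 0.02), the cystine transporter Slc7a11 by 4.75 and the stress cytokine Gdf15 by 4.0. In PE-treated MRL mice 1 was higher and 1 lower (median 0.83), namely the serine synthesis gene Psat1 at 1.79 and the glutathione-degrading enzyme Chac1 at -1.88. With a minimum mean log2 CPM of 1, limma called 0 of the ATF4 list in PE-treated B6 mice, with 3058 of all genes called. That fit called 4 of the list in PE-treated MRL mice, with 1646 of all genes called.

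After saline and ECM, limma called 0 genes of these 9 lists in B6 and in MRL mice, as for 0 and 60 (0.424%) of all genes in B6 and 0 and 2 in MRL mice.

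Markers of other cell types differed between the same groups. In PE-treated B6 mice 6 of the 6 neutrophil markers in the matrix and 5 of 9 fibroblast markers were called higher. Lower were 5 of 6 endothelial and 3 of 10 adipocyte markers, and the medians, in that order, were 3.99, 1.81, -0.98 and -2.94. Other listed neutrophil markers were absent from the matrix, which kept genes above 1 CPM in at least 3 libraries. The neutrophil mean per library was -1.31 to -0.46 log2 CPM in uninjured and 1.72 to 4.33 in PE-treated B6 mice. Markers could pass that filter through the PE-treated B6 libraries alone, so 6 of 6 is not a share of the whole list. In PE-treated MRL mice 1 of 6 neutrophil and 2 of 9 fibroblast markers were called higher and 0 endothelial and 0 adipocyte markers, with medians of 1.96, 1.35, 0.05 and 1.77. No satellite cell marker of 6 was called in either strain, with medians of -0.31 and -0.92. Of 7 mammary epithelial markers, 1 was called higher in B6 and 0 in MRL mice, with medians of 0.12 and 1.72. The part of these cell types in the changes of the lists was not tested.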

How the data were processed

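The authors quantified poly(A) RNA with kallisto against the Ensembl mouse cDNA (GRCm39), summed transcripts to genes with tximport, kept genes above 1 CPM in at least 3 libraries, applied edgeR's TMM scaling and deposited log2 CPM values with a prior count of 2. The study tested counts with limma-voom. Here the deposited log2 CPM were tested with limma 3.58.1 in R 4.3.3, with 1 coefficient per group over 24 libraries, moderated variances that follow mean expression, and 2-sided p-values adjusted by Benjamini-Hochberg over 14159 genes in each of 16 comparisons and 4 tests of a strain difference. The 1 row with no gene symbol was dropped. The procedure was tested on simulated data. The 8 genes and the 17 lists were chosen with earlier results of these data known, and no set test was run. Of each list, up to 4 genes per comparison are named, those with the largest absolute change among called genes, and 3 per member by Pearson correlation. Some genes that this rule would name are not reported here. Copies were searched with BLAST 2.17.0 (at least 90% identity over 50% of the shorter transcript). Figures used Python 3.11.15, pandas 2.3.3 and matplotlib 3.10.9. All 3 correlations of the deviations of same-numbered libraries exceeded 0.1 only between PE-treated MRL and B6 mice (0.105, 0.532 and 0.439), with a replicate block as an alternative there and elsewhere. The other alternatives were log2(CPM + 1), a minimum mean log2 CPM of 1, equal totals, quantile normalization, library weights, a constant prior variance, a fit of the compared groups alone and leaving out each library.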

Additional observations from a re-analysis of the deposited data

How the results depend on the processing

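Over 20 comparisons and 304 alternatives, the number of the 8 genes called stayed at its reported value in 268 and moved in 36. PE-treated against uninjured MRL mice, with 2 called, gave 1 with equal totals in each library and 3 with library weights. It gave 0 with quantile normalization, a constant prior variance, the replicate block and a fit without the other groups. All genes called were 2075 with equal totals and 2518 with library weights. With the replicate block the adjusted p was 0.0538 for Fbxo32 and 0.0504 for Trim63, and all genes called went from 1377 to 9. The replicate numbers are not tied to shared animals there, and the block changed no other count of the 8 genes. PE-treated against uninjured B6 mice, with 1 called, gave 3 with equal totals, 3 with library weights and 2 with the compared groups alone. All genes called went from 3508 to 4304, 9004 and 4231 in these fits. Equal totals gave 1 between PE and saline in B6 mice, and the compared groups alone gave 1 between ECM and uninjured B6 mice. Library weights, whose iteration stopped before it converged, gave 2, 1, 1, 5 and 1 in B6 mice (saline and ECM against uninjured, ECM and PE against saline, PE against ECM). They gave 5 and 2 in MRL mice (PE against saline and ECM), 2, 1 and 6 between strains (saline, ECM and PE), and 3 and 2 for the strain difference in the PE response against uninjured and against ECM. Outside the fits that left out a library, all genes called reached at most 4785, 2687, 2227, 9640 and 5579 in these B6 comparisons. In MRL mice they reached 3303 and 2311, between strains 5919, 2411 and 7996, and for the strain differences 3881 and 1886. Each list follows the same order, out of 14159 genes. Leaving out libraries gave 0 to 1 for PE-treated B6, 0 to 2 for PE-treated MRL and 0 to 2 for saline-treated B6 mice against uninjured mice, and 0 to 1 for PE against ECM in MRL mice, for the strains after saline and after PE, and for both strain differences in the PE response. All genes called ranged there, in the same order, from 533 to 3435, 0 to 3427, 0 to 456 and 0 to 1740. Between strains they ranged from 230 to 613 and 234 to 3490, and for the strain differences from 1 to 1354 and 0 to 269. Fbxo32 in saline-treated B6 mice turned from -0.27 to 0.0183 without saline replicate 3 (range -0.65 to 0.0183 when single libraries were left out). Trim63 in saline-treated MRL mice turned from -0.13 to 0.00830 with equal totals and to 0.0454 without uninjured replicate 3 (range -0.28 to 0.0454), and neither was called. Equal totals moved the median of all genes to 0.43 in PE-treated B6 and 0.47 in PE-treated MRL mice, from 0.02 and 0.07, and quantile normalization to -0.14 and -0.09. Relative to that median, Fbxo32 and Trim63 stayed below it in both. The cause of these moves was not tested. The 8 genes lay above the level of a count of 0 in every library, and which of depth and the number of libraries limits the comparisons was not tested.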
